A study of Arabidopsis thaliana with 12 samples.

Results

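The 50 genes described here encode the nuclear part of the photosynthetic light reactions of Arabidopsis thaliana. They were chosen by locus identifier from a total of 33607 genes, and all 50 were listed for every library. By role they are 6 LHCA genes for the antenna of photosystem I, 9 LHCB1, LHCB2 and LHCB3 genes for the trimeric antenna of photosystem II, and 6 LHCB4 to LHCB7 genes for its monomeric and rarer antenna proteins. A further 12 PSA genes encode subunits of photosystem I, 10 PSB genes encode subunits of photosystem II, and 7 genes encode electron carriers and ferredoxin-NADP+ reductase (FNR).

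Antenna proteins bind chlorophyll and pass excitation energy to the photosystems, which drive electrons from water through the cytochrome b6f complex and plastocyanin to ferredoxin and FNR. The core subunits that hold most of the cofactors are encoded in the plastid, whereas the antenna proteins, the oxygen-evolving proteins and many small subunits are encoded in the nucleus. The chain is rich in iron: photosystem I, the cytochrome b6f complex and ferredoxin carry iron-sulfur clusters or haem, and chlorosis of young leaves is a classic sign of iron shortage.

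RNA was sequenced from 12 samples in the Columbia-0 background, in 6 groups of 2. Control plants carried 35spro:EYFP, a fluorescent protein behind the constitutive 35S promoter, and the other plants were of the IMA1 OE line #7-4, with IMA1 behind the same promoter. IMA1 encodes a small peptide that promotes iron uptake. Each transgene was represented by 1 line. All seedlings grew 10 days on complete ES medium with 1.5% sucrose at 25 per plate in constant light at 50 µmol per square metre per second, and were sampled 72 hours after a transfer. EYFP OE roots and rosettes came from full medium. IMA1 OE roots and rosettes came from full medium or from medium without Fe and with 100 µM of the Fe chelator FerroZine. EYFP OE plants on Fe-deficient medium were not analysed here, so a comparison of Fe-deficient IMA1 OE with EYFP OE differs in medium as well as in line, and these cannot be told apart. Such comparisons use the same EYFP OE libraries as the comparisons on full medium. The labels do not say whether samples of a group came from separate cultures, so p-values measure the spread between these samples, which may be technical.

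The deposited values are a normalized, length-scaled signal per gene with no stated unit and no read totals, so the depth is unknown. The IMA1 gene (AT1G47400) had signals of 6.71 and 1.96 in roots of the control and 409.95 and 365.97 in roots of its own line on full medium. In rosettes on full medium its signals were 9.03 and 2.02 in EYFP OE and 482.72 and 345.57 in IMA1 OE. Pairs of values are given throughout as library 1 and then library 2 of a group, and values for EYFP OE come before those for IMA1 OE. RNA integrity numbers ran from 9.8 to 10 in roots and from 8.3 to 8.7 in leaves. The tissue labels fitted the marker lists. The summed signal of 9 root markers was 213.68 to 234.76 in the 4 root libraries on full medium and 1.03 to 1.98 in the 4 rosette libraries on full medium, where 8 of the 9 were below 1 in every library. The summed signal of 8 leaf markers that are not among the 50 genes was 31018 to 37368 in those rosette libraries and 185.98 to 322.26 in those root libraries. In the rosette table for Fe-deficient plants, the IMA1 OE columns are headed +Fe. The sample labels of the Fe-deficient IMA1 OE rosettes name this table, and the columns were assigned by those labels. Every value given for Fe-deficient rosettes carries that doubt. The 3 tested ferritin genes, which encode iron-storage proteins, had log2 changes of -0.25 to 0.49 in that table and of 1.398 to 3.11 in the full-medium rosette table. FER1 had 58.90 and 280.55 in EYFP OE and 249.14 and 124.33 in IMA1 OE in that table. The assignment rests on the labels and not on these values.

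In whole organs, fewer cells of a type and less RNA per cell cannot be told apart. Several genes have close copies within their family. Among the LHCB1 pairs aligned, identical coding bases ran from 90.2% for LHCB1.1 and LHCB1.5 to 96.4% for LHCB1.2 and LHCB1.3. LHCB2.1 and LHCB2.2 shared 92.9%, and LHCB2.3 shared 84.5% and 84.7% with them. No LHCB1 gene was aligned with an LHCB2 gene. How reads shared by such copies were counted is not given in the sources used here, so the division of signal among them is uncertain. Of the 50 genes, 19 overlap another annotated gene, 17 of them on the opposite strand. The library kit was stranded, but whether counting used the strand is not given in the sources used here.

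The sequences of 5 promoters are shown because close relatives differed in how their signal varied between libraries: LHCB1.1 and the 3 LHCB2 genes varied strongly between replicate libraries of rosettes, whereas LHCB1.3, with 96.1% of its coding bases identical to LHCB1.1, varied less. LHCB1.3 ranked 2, 1, 2 and 1 by signal in the EYFP OE and IMA1 OE rosette libraries on full medium. It had the same values in both lines. The part of the authors' normalization in its smaller variation was not tested. LHCB1.1, LHCB2.1 and LHCB2.2 were chosen for display after their values were seen. Each line gives the 250 bases before the annotated gene start, 5′ to 3′ on the strand of the gene, from the RefSeq assembly TAIR10.1. Capitals mark matches to CACGTG (the G-box), GATAAG (the I-box) or CCAATC. LHCB1.1 (AT1G29920) lies on the minus strand with its promoter at chr1:10475970-10476219, and LHCB1.3 lies on the plus strand beside it with its promoter at chr1:10477635-10477884. The promoter of LHCB2.1 (AT2G05100) is at chr2:1824481-1824730 and that of LHCB2.2 (AT2G05070) at chr2:1800473-1800722, both on the minus strand. The LHCB2.3 promoter is at chr3:10255656-10255905 on the plus strand.

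LHCB1.1: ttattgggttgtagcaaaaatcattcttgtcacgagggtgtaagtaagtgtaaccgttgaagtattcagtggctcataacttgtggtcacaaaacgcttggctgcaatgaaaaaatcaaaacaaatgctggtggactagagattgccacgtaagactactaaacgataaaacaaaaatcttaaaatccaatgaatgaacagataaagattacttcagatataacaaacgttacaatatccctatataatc

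LHCB1.3: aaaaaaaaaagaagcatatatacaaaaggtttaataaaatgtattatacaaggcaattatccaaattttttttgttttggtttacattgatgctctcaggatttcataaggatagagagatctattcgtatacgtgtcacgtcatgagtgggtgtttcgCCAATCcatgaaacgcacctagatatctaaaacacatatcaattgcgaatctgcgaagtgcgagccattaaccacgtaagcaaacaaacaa

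LHCB2.1: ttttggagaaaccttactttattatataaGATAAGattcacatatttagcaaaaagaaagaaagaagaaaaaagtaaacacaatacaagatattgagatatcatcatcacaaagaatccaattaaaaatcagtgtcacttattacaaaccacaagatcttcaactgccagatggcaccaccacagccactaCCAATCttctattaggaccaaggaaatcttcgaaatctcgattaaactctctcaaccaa

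LHCB2.2: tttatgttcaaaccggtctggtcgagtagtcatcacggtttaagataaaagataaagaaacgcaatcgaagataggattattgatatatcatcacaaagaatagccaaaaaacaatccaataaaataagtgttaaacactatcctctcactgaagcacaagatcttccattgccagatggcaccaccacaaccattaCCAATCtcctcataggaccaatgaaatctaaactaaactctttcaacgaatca

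LHCB2.3: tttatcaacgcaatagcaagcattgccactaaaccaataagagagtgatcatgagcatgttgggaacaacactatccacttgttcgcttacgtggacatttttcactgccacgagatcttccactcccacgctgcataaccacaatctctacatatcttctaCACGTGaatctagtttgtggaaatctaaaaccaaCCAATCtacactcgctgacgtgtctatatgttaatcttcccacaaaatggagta

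CCAATC stood 59, 53 and 54 bases before the start of LHCB2.1, LHCB2.2 and LHCB2.3, and 91 bases before that of LHCB1.3. LHCB2.3 also held a G-box 88 bases before its start, and LHCB2.1 an I-box 221 bases before its start. The LHCB1.1 window held none of these letters, nor the AGATTCT element that was searched as well. On both strands, CCAATC was found in 13 of the 50 promoters (26%) and in 10.2% of 27443 nuclear promoters of the same length. The G-box was found in 9 (18%, against 6.49%), the I-box in 12 (24%, against 12.3%) and AGATTCT in 5 (10%, against 6.22%). The search gave letter matches and no binding data.

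In EYFP OE rosettes these genes were among the most abundant transcripts. Together they made up 11.5% and 14.1% of the summed signal of the EYFP OE libraries 1 and 2, and 11.9% and 13.8% of that of the IMA1 OE libraries on full medium. In EYFP OE library 1, 4 of the 50 were among the 10 genes of highest signal, 38 among the first 100 and 46 among the first 500 of 33607. The highest was LHCB1.3 (AT1G29930), a major protein of the photosystem II antenna trimer, with signals of 10937.47 and 11895.39, and the lowest was LHCB7 (AT1G76570), a rare antenna protein, with 15.58 and 15.20. Between these lay photosystem II subunit PSBR (AT1G79040) with 4137.60 and 3508.96, the plastocyanin PETE2 (AT1G20340) with 3945.36 and 3142.03, and the photosystem II antenna protein LHCB5 (AT4G10340) with 2888.13 and 4031.03. The lowest genes of the other roles were LHCA6 (AT1G19150) with 148.22 and 147.75, PETE1 (AT1G76100) with 210.04 and 323.35, LHCB2.3 (AT3G27690) with 239.92 and 1164.25, PSAE2 (AT2G20260) with 579.32 and 605.48, and PSBY (AT1G67740) with 653.76 and 816.31. PSBR and PETE2 did not differ beyond the spread of their libraries, while LHCB1.3 was higher than any other gene of the 50 in every rosette library.

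**Figure D1:**
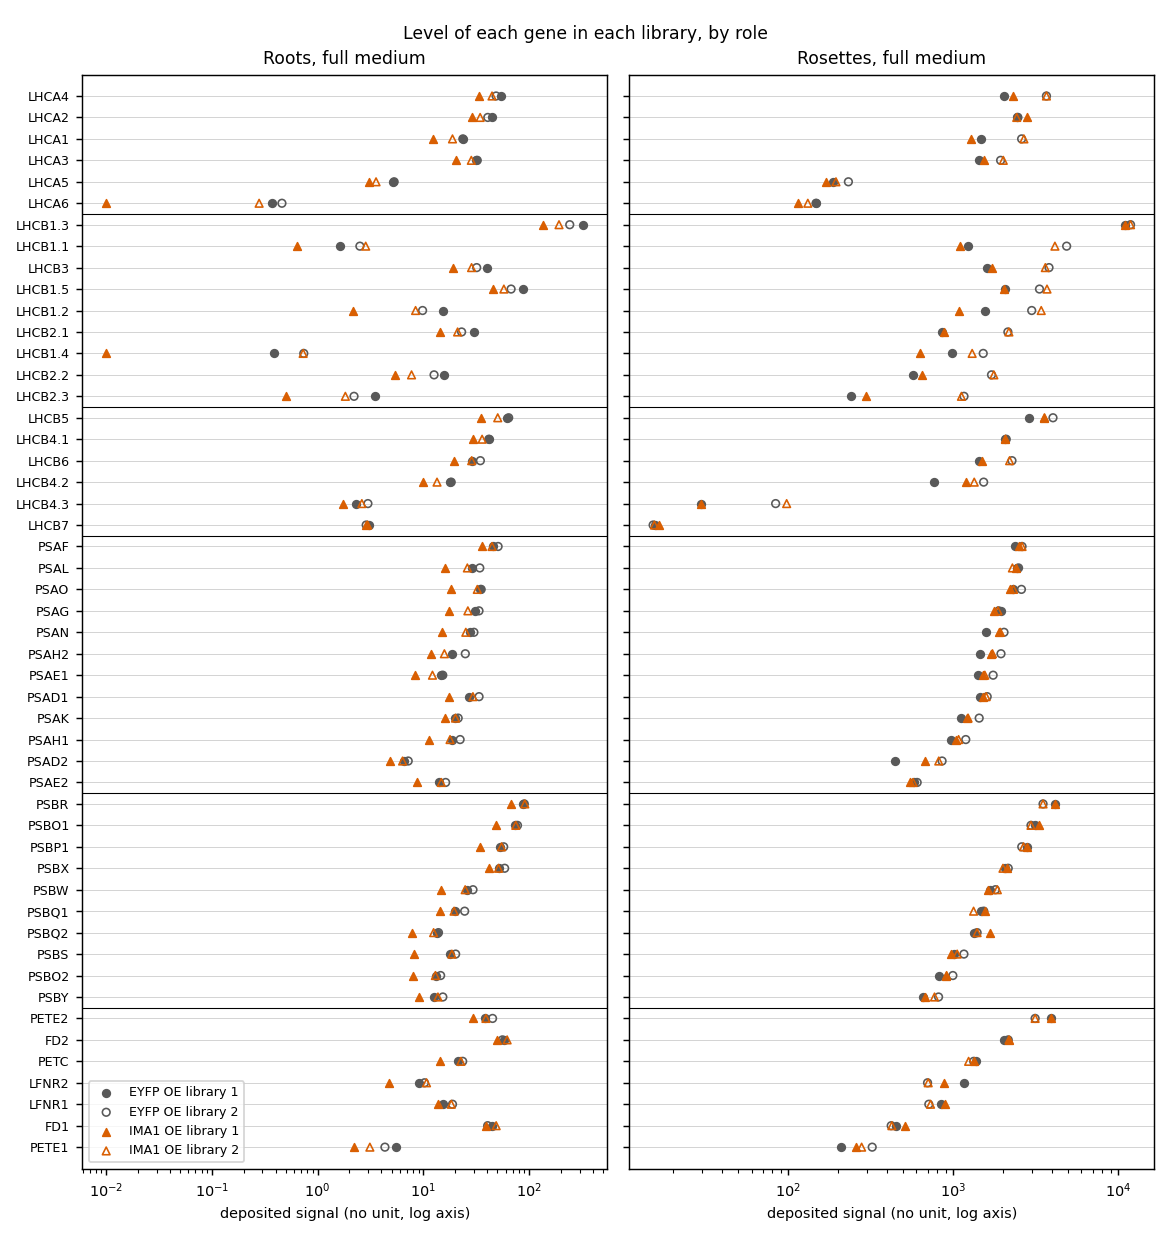
Deposited signal of each of the 50 genes in every full-medium library of roots (left) and rosettes (right) on log axes, with EYFP OE as grey circles and IMA1 OE as orange triangles; filled symbols are library 1 and open symbols library 2. In rosettes the symbols of the lines are mixed for nearly all genes, whereas in roots the filled triangles (IMA1 OE library 1) sit lowest for most genes.

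Every gene had a higher signal in EYFP OE rosettes than in EYFP OE roots. The median ratio of rosette to root was 57.9, from 5.19 for LHCB7 to 2220 for LHCB1.4, whose root values lay below 1. These ratios set side by side values from tables that the authors normalized separately. LHCB1.1 and LHCB1.3, neighbours on chromosome 1, had ratios of 1480 and 40.2. The ferredoxin genes also differed, with a ratio of 10.3 for FD1 and 36.6 for FD2. In the roots the 50 genes together made up 0.246% and 0.237% of the signal of the EYFP OE libraries.

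In rosettes on full medium, the values of all but 5 light-reaction genes overlapped between the lines. IMA1 OE lay wholly above EYFP OE for 1 gene, where 13.1% of all tested genes did. It lay wholly below for 4 genes, where 18.5% did. Of the 50 genes, 26 had a higher mean in IMA1 OE, 21 a lower mean and 3 the same mean, where 58.5% of all tested genes had a lower mean, and the median log2 change was 0.007, beside -0.03 over all 18731 tested genes. The changes ran from -0.44 for LHCB1.4 to 0.27 for PSAD2 on the log2(signal + 1) scale, which understates changes of low genes. None passed the limma test at an adjusted p of 0.05, where 2 genes of the whole table (0.0107%) did, and none had an unadjusted p under 0.05, where 5.43% of all genes did. The smallest adjusted p among the 50 was 1. The median 95% interval reached 0.50 to either side, a factor of 1.41, and all 50 intervals held 0. A p that misses the threshold does not show that the lines were alike, and with 2 libraries against 2 an exact permutation test of a single gene cannot go below 0.333.

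The direction of this small median depended on the libraries. Without EYFP OE library 1 the median was -0.16 and 39 of the 50 genes had a lower mean in IMA1 OE. Without EYFP OE library 2 the median was 0.12 and 14 had a lower mean. Without IMA1 OE library 1 or 2 it was 0.04 or -0.04. By the authors' deposited table, 9 of the 50 had a Z-test p-value under 0.05 in this comparison, 5 higher and 4 lower in IMA1 OE, and 2.11% of the tested genes did. The values of all 9, LHCB1.1 and LHCB1.4 among them, overlapped between the lines here.

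**Figure D2:**
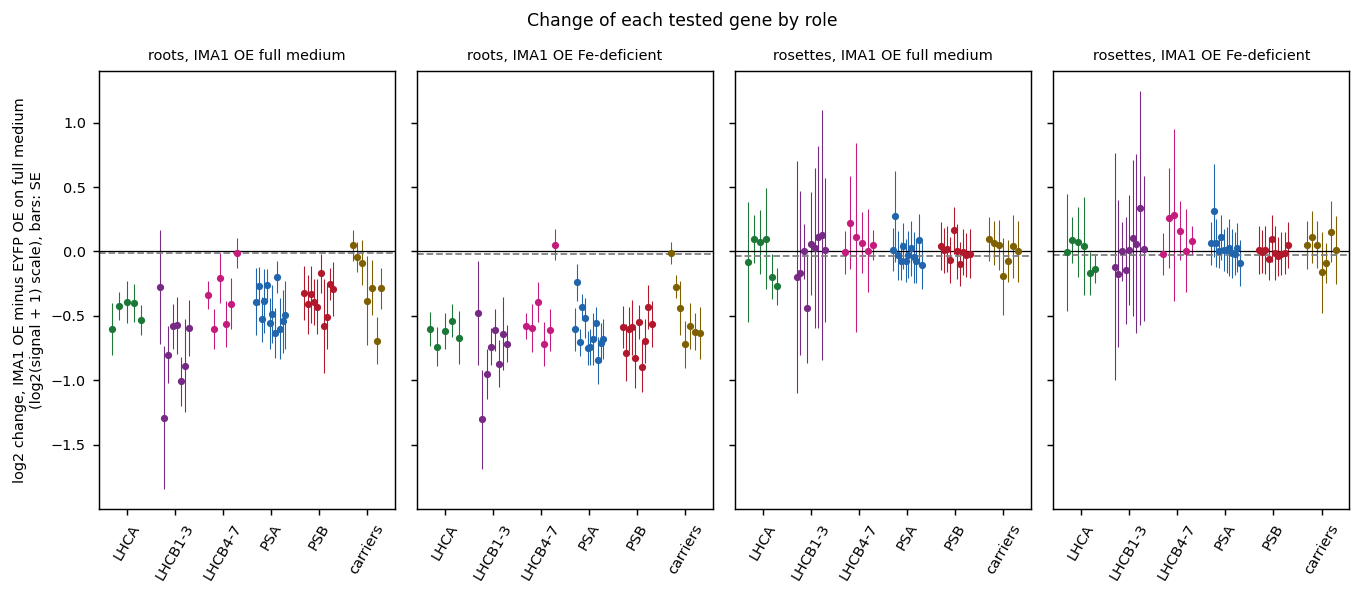
Log2 change with its SE for each tested gene (points) in the 4 comparisons, grouped by role; the dashed line is the median of all tested genes. Points lie around 0 in both rosette panels and almost all below 0 in both root panels, and the bars are longest for photosystem II antenna genes in rosettes.

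Among the photosystem I antenna genes, LHCA6 was the only gene of the 50 whose IMA1 OE values lay apart from the EYFP OE values in both rosette comparisons. Both its IMA1 OE values lay below, where 18.5% of all tested genes did on full medium and 19.5% in the Fe-deficient comparison. The comparisons share the EYFP OE libraries, and the share of all genes apart in both is not given here. LHCA6 belongs to the minor antenna proteins that join photosystem I to the chloroplast NADH dehydrogenase-like complex. Its signals on full medium were 148.22 and 147.75 in EYFP OE and 114.06 and 131.66 in IMA1 OE, a log2 change of -0.27 with an SE of 0.14 (limma, adjusted p = 1). In Fe-deficient IMA1 OE rosettes they were 132.39 and 134.90, against 147.43 and 147.09 for EYFP OE in that table, a log2 change of -0.14 with an SE of 0.11 (limma, adjusted p = 0.994). LHCA5, the other member of that linking pair, had 185.98 and 231.94 in EYFP OE and 168.75 and 194.98 in IMA1 OE on full medium, and the groups overlapped. The abundant LHCA4 had 2025.89 and 3679.46 in EYFP OE and 2320.54 and 3679.46 in IMA1 OE, and LHCA2 had 2430.36 and 2468.57 against 2820.20 and 2430.36. Both overlapped between the lines.

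For the trimer of the photosystem II antenna, the replicate libraries of a line differed more than the line means did, for each of the 9 genes. LHCB1.4 (AT2G34430) had the lowest change of the 50 genes, with 988.77 and 1522.43 in EYFP OE and 626.47 and 1304.67 in IMA1 OE (change of -0.44 ± 0.42 SE in log2 units; limma, adjusted p = 1). LHCB1.2 had 1559.11 and 2995.45 in EYFP OE and 1079.79 and 3420.46 in IMA1 OE. In both genes library 1 of each line was low and library 2 high. LHCB1.3 had the same 2 values, 10937.47 and 11895.39, in both lines.

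Equal values were common among abundant genes. Of the 44 light-reaction genes above a signal of 500, 11 (25.0%) had a value in an EYFP OE rosette library that was listed to the same decimals in an IMA1 OE library on full medium, and 12 of 120 other genes above 500 (10.0%) did. PETE2 and PSBR, like LHCB1.3, were equal in both libraries. After multiplying by the longest annotated transcript length, the sorted values at ranks 201 to 1000 of the 4 libraries had a median spread of 0.0228 on the log2 scale, and of 0.0514 as deposited. The part of the authors' normalization in the equal values was not tested.

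The other antenna genes of photosystem II, LHCB4 to LHCB7, overlapped between lines. The products of LHCB4 to LHCB6 link the trimers to the core. LHCB4.2 had the largest positive change of this role on full medium, with 769.68 and 1531.52 in EYFP OE and 1199.04 and 1342.94 in IMA1 OE (log2 change 0.22, SE 0.36). Its relative LHCB4.1 had 2075.98 and 2098.84 against 2075.98 in both IMA1 OE libraries. LHCB4.3 had 29.55 and 84.03 against 29.60 and 97.99, again with a low library 1 and a high library 2 in each line.

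Of the photosystem I subunits, PSAE2, PSAG and PSAL had both IMA1 OE libraries below both EYFP OE libraries on full medium. With LHCA6 they made 4 of the 50 genes apart in that direction, and PSAG and PSAL are named after their values were seen. For comparison, 18.5% of all tested genes were apart that way. PSAE2, a copy of the stromal subunit that helps dock ferredoxin, had 579.32 and 605.48 in EYFP OE and 551.55 and 572.33 in IMA1 OE (log2 change -0.08, SE 0.15). PSAD2 (AT1G03130), a copy of the other ferredoxin-docking subunit, had the largest positive change of the 50 genes, with 442.02 and 857.39 in EYFP OE and 674.99 and 818.58 in IMA1 OE (log2 change 0.27, SE 0.35). Its values overlapped, since EYFP OE library 1 was low and library 2 high. PSAO, a small subunit, had 2309.55 and 2594.93 against 2218.00 and 2324.44.

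The photosystem II subunits had the most even sums of the 6 roles in full-medium rosettes. The summed signal of the 10 PSB genes was 19106 and 18951 in EYFP OE and 19793 and 18480 in IMA1 OE on full medium. PSBO1, the major copy of the manganese-stabilizing protein of water oxidation, had 3114.52 and 2965.36 against 3302.07 and 2965.36, and PSBO2 had 822.18 and 996.57 against 908.42 and 913.37. PSBQ2, another oxygen-evolving protein, had 1338.86 and 1397.92 against 1683.69 and 1397.92 (log2 change 0.17, SE 0.18). PSBS (AT1G44575), which acts in the dissipation of excess light, had 1006.30 and 1163.13 against 966.21 and 1058.60. Values of both lines overlapped for each of these genes.

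No gene whose product holds iron passed the test in rosettes. PETC (AT4G03280), the Rieske iron-sulfur protein of the cytochrome b6f complex, had 1372.21 and 1332.70 in EYFP OE and 1332.70 and 1241.74 in IMA1 OE (log2 change -0.07, SE 0.16). FD2 (AT1G60950), the major leaf ferredoxin, was the only gene of the 50 with both IMA1 OE libraries above both EYFP OE libraries on full medium, where 13.1% of all genes were. Its signals were 2021.86 and 2158.51 in EYFP OE and 2189.96 and 2180.99 in IMA1 OE, a log2 change of 0.07 with an SE of 0.17. FD1 (AT1G10960), the minor leaf ferredoxin, had 451.83 and 421.53 against 512.37 and 425.49 and overlapped. In the same libraries FER1, a ferritin that stores iron in plastids, had 59.38 and 279.01 in EYFP OE and 1265.33 and 994.46 in IMA1 OE (change of 3.11 ± 0.73 SE in log2 units; limma, adjusted p = 0.491).

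Of the carriers without iron, the plastocyanin gene PETE1 had 210.04 and 323.35 in EYFP OE and 257.49 and 278.96 in IMA1 OE. LFNR2 (AT1G20020), a leaf FNR, had 1169.71 and 700.04 against 886.71 and 706.47 (log2 change -0.19, SE 0.30), and LFNR1 had 847.58 and 712.57 against 890.50 and 729.88. In both FNR genes library 1 was the higher one in each line, the reverse of the 9 trimer genes.

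In rosettes of Fe-deficient IMA1 OE plants, the values of all but 2 light-reaction genes overlapped with those of EYFP OE on full medium. The median log2 change was 0.012, beside -0.03 over all 18691 tested genes, with 31 of the 50 higher, 18 lower and 1 equal, where 56.8% of all genes were lower. None of the 50 passed the adjusted threshold, which 0.00535% of all genes did, and none had an unadjusted limma p under 0.05, which 5.17% did. The smallest adjusted p was 0.994. PSAF (AT1G31330), which docks plastocyanin at photosystem I, was the only gene apart above, with 2388.98 and 2667.85 in EYFP OE and 2742.03 and 2710.51 in IMA1 OE, where 13.8% of all genes were apart above. LHCA6 was the only one apart below, where 19.5% of all genes were. The largest change was that of LHCB2.3, with 238.71 and 1169.26 in EYFP OE and 402.90 and 1112.39 in Fe-deficient IMA1 OE (log2 change 0.34, SE 0.91). FD2 had 2041.22 and 2154.73 against 2567.07 and 1999.62, and PETC had 1423.05 and 1364.85 against 1364.85 and 1261.05. Without EYFP OE library 1 the median was -0.12 and 37 genes had a lower mean in IMA1 OE, and without EYFP OE library 2 it was 0.15 and 13 did. Without IMA1 OE library 1 or 2 it was 0.05 or -0.01. By the authors' deposited table, 10 of the 50 had a p-value under 0.05, 6 higher and 4 lower, and 1.7% of the tested genes did.

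Several antenna genes of photosystem II varied widely between rosette libraries of the same group. In all 3 rosette groups library 2 was over 2-fold above library 1, on the log2(signal + 1) scale, for LHCB1.1, LHCB2.1, LHCB2.2, LHCB2.3, LHCB3 and LHCB4.3. These are 6 of the 50 genes (12%), and 0.274% of all tested rosette genes did so. They were singled out after their values were seen, and no test was made. LHCB1.1 had 1232.69 in EYFP OE library 1 and 4876.92 in library 2, and 1101.45 and 4140.72 in the IMA1 OE libraries on full medium. LHCB2.2 had 571.20 and 1709.09 in EYFP OE and 648.75 and 1766.05 in IMA1 OE, and LHCB3 had 1608.67 and 3812.74 against 1719.95 and 3622.38. In Fe-deficient IMA1 OE the LHCB1.1 values were 1311.22 and 4163.34.

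The difference between replicate libraries was larger in the trimer genes than in the carrier genes. For the 9 trimer genes the median log2 ratio of library 2 to library 1 was 1.24 in EYFP OE, 1.32 in IMA1 OE on full medium and 1.14 in Fe-deficient IMA1 OE, beside medians of 0.0, -0.005 and -0.005 over all tested genes. The summed signal of the trimer genes was 20063 and 33463 in EYFP OE and 19316 and 33159 in IMA1 OE. That of the carrier and FNR genes was 10019 and 8790.7 in EYFP OE and 10015 and 8705.6 in IMA1 OE. Of the 50 genes, 25 were higher in library 2 of all 3 groups, where 24.5% of all genes were, and 9 (18%) were lower in library 2 of all 3 groups, where 25.1% of all genes were. In roots, 35 of the 48 tested genes (72.9%) were higher in library 2 of all 3 groups, where 21.3% of all genes were, and none was over 2-fold higher in all 3, where 0.0511% were. The labels do not say what the replicate numbers stand for.

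**Figure D3:**
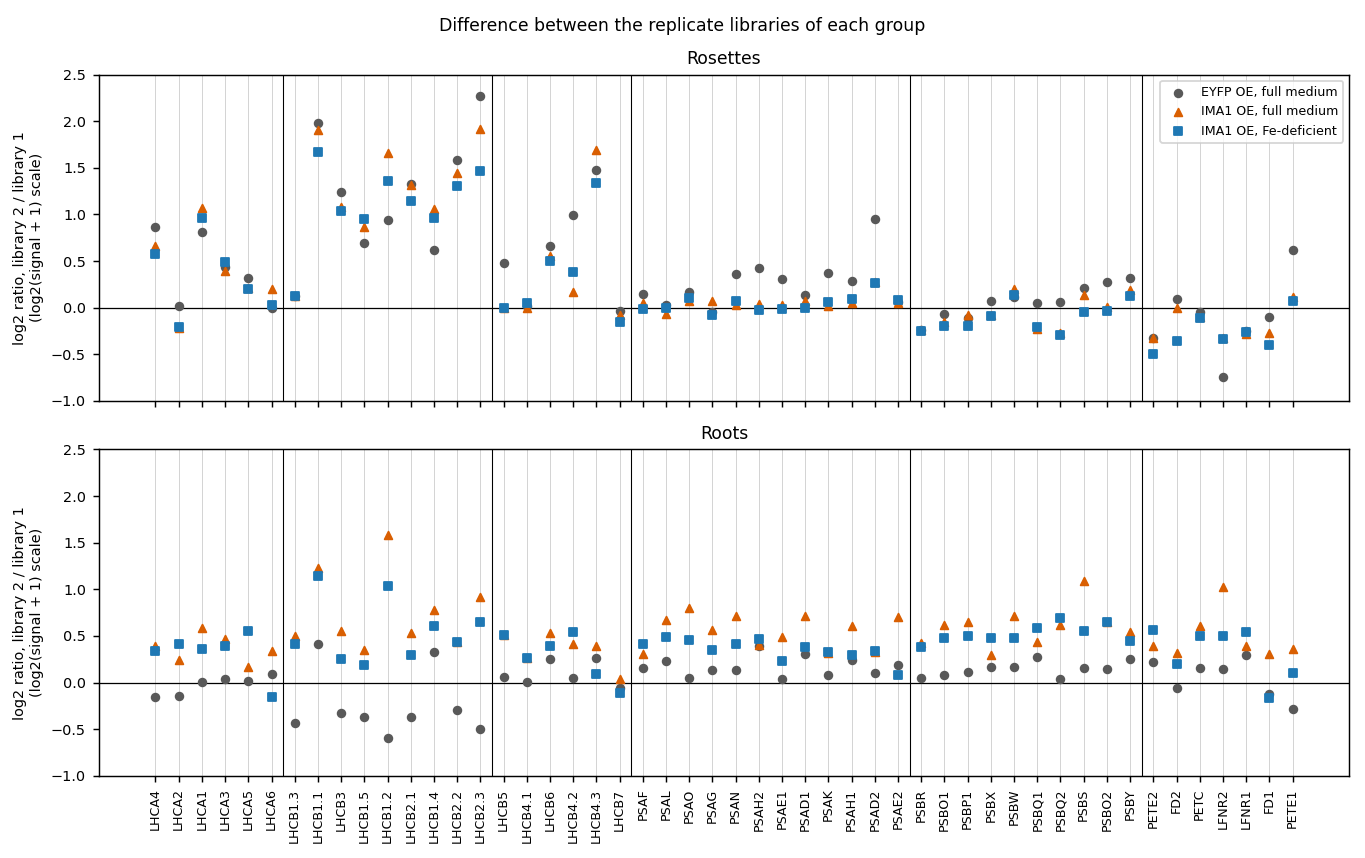
Log2 ratio of library 2 to library 1 in each of the 3 groups, for each of the 50 genes ordered by role, in rosettes (top) and roots (bottom). In rosettes the ratios of the LHCB1 to LHCB3 genes reach 2.27 and have the same sign in all groups, while in roots the EYFP OE ratios (grey circles) lie between -0.60 and 0.42 and the ratios of both IMA1 OE groups lie mostly above 0.

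The division of signal within gene families followed the libraries as well. LHCB1.3 took 65.1% of the LHCB1 signal in EYFP OE rosette library 1 and 48.3% in library 2, and 69.3% and 48.6% in the IMA1 OE libraries on full medium. LHCB1.1 took 7.34% and 19.8% in EYFP OE and 6.98% and 16.9% in IMA1 OE. In the roots LHCB1.3 took 73.3% to 75.7% in the 4 libraries on full medium and LHCB1.1 at most 1.09%. Because the LHCB1 genes are near copies, these shares are uncertain.

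**Figure D4:**
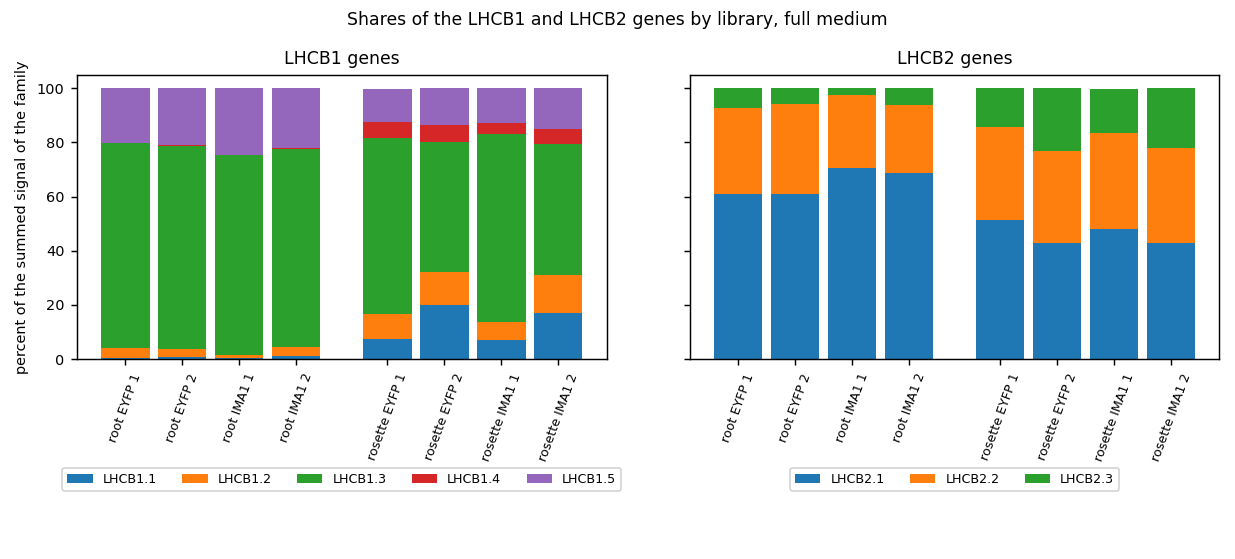
Share of the summed LHCB1 signal (left) and LHCB2 signal (right) held by each gene in each full-medium library, in percent; each bar is 1 library and its colours are the genes. In rosettes the bars of libraries numbered 2 show larger LHCB1.1 and LHCB2.3 shares in both lines, and in roots LHCB1.3 and LHCB1.5 fill nearly the whole LHCB1 bar.

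Outside the antenna, shares within pairs of paralogues differed between tissues for some pairs. FD2 took 81.0% to 83.7% of the ferredoxin signal in the 4 full-medium rosette libraries and 55.8% to 58.0% in the root libraries. PSAE1 took 70.9% to 74.3% of the PSAE signal in rosettes and 45.2% to 51.2% in roots. PSAD1 took 76.8% and 65.2% in EYFP OE rosettes and 69.2% and 66.0% in IMA1 OE rosettes. PSAH2 took 59.8% to 62.0% of the PSAH signal and PETE2 took 90.7% to 94.9% of the plastocyanin signal in rosettes, with the lines overlapping in both. PSBO1 took 79.1% and 74.8% against 78.4% and 76.5% there on full medium, and LFNR1 42.0% and 50.4% against 50.1% and 50.8%. Of the pairs outside the antenna, only PSBQ did not overlap between the lines in rosettes. PSBQ2 took 47.4% and 47.7% in EYFP OE and 51.9% and 51.2% in IMA1 OE on full medium. In the Fe-deficient comparison it took 47.2% and 47.8% against 51% and 49.5%. On full medium the library 2 signal of PSBQ2 was 1397.92 in both lines, and that of PSBQ1 was 1534.15 and 1330.87. Both comparisons share the EYFP OE libraries, and no test of shares was made. With 2 libraries against 2, an exact permutation test cannot go below 0.333.

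In roots on full medium, where these genes were weakly expressed, nearly all had lower values in IMA1 OE, but none passed the adjusted threshold. Of the 50 genes, 48 passed the filter on low values. LHCA6 and LHCB1.4 did not, with signals under 1 in every root library. Of the 48, 47 had a lower mean in IMA1 OE, where 53.9% of all tested genes did, and the median log2 change was -0.41, beside -0.01 over all genes. Both IMA1 OE libraries lay below both EYFP OE libraries for 31 of the 48, where 16.2% of all genes did so, and 15 had an unadjusted limma p under 0.05 with a lower mean, where 1.55% did. The smallest adjusted p was 0.534, and 0.0355% of all genes passed the adjusted threshold. By the authors' deposited table, LHCB1.3 and LHCB1.5 had a p-value under 0.05, both lower, and 0.755% of the tested genes did.

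The size of this difference depended on the library. Without IMA1 OE root library 1 the median was -0.15 and 40 of 48 genes had a lower mean, and without IMA1 OE root library 2 it was -0.74 and 48 did. All 48 were higher in IMA1 OE library 2 than in library 1. The 50 genes together summed to 1682.2 and 1632.6 in EYFP OE and to 1008.4 and 1434.4 in IMA1 OE. The leaf markers, 6 of whose 8 genes are also in the Calvin-Benson list, had lower means as well: their summed signal was 301.10 and 322.26 in EYFP OE and 185.98 and 288.51 in IMA1 OE, and 7 of 8 had a lower mean, with a median log2 change of -0.50. The root markers summed to 232.07 and 223.04 in EYFP OE and to 213.68 and 234.76 in IMA1 OE. The part of the leaf-marker difference in the result was not tested.

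By role, the trimer antenna genes had the lowest median in roots on full medium, -0.70, and the carrier and FNR genes the highest, -0.28. LHCB1.3 had 326.29 and 242.05 in EYFP OE and 135.05 and 191.60 in IMA1 OE (change of -0.80 ± 0.22 SE in log2 units; limma, adjusted p = 0.898). LHCB1.2 had 15.40 and 9.83 against 2.15 and 8.44 (log2 change -1.29, SE 0.55). In both genes IMA1 OE library 1 was the lowest library and neither IMA1 OE value reached an EYFP OE value. The LHCB2 gene with the smallest p, LHCB2.2, had 15.67 and 12.62 against 5.44 and 7.73 (change of -1.01 ± 0.19 SE in log2 units; limma, adjusted p = 0.534), and was chosen after its values were seen.

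The ferredoxin genes and LHCB7 had the changes nearest to 0 in roots on full medium. FD1 had 44.18 and 40.55 in EYFP OE and 39.39 and 48.79 in IMA1 OE, a log2 change of 0.05 with an SE of 0.12, the only positive change among the 48. FD2 had 58.33 and 55.92 against 49.67 and 61.93, and LHCB7 had 3.05 and 2.88 against 2.88 and 2.97. The groups overlapped in all 3 genes. PETC had 21.05 and 23.53 against 14.50 and 22.61 and overlapped as well.

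In roots of Fe-deficient IMA1 OE plants nearly all light-reaction genes also had lower values, with both libraries below both EYFP OE libraries for 45 of the 48 genes, where 21.6% of all tested genes did so. The median log2 change was -0.61, beside -0.02 over all genes, and 47 of 48 had a lower mean, where 55.2% did. Of the 48, 40 had an unadjusted limma p under 0.05 with a lower mean, where 4.09% of all genes did. None passed the adjusted threshold, which 181 of 19673 genes (0.92%) did. The nearest was PSAE1 (AT4G28750), with 14.50 and 14.92 in EYFP OE and 7.90 and 9.44 in Fe-deficient IMA1 OE (change of -0.70 ± 0.11 SE in log2 units; limma, adjusted p = 0.0842). By the authors' deposited table, 7 of the 50 had a p-value under 0.05, all with a lower mean, and 1.71% of the tested genes did.

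Every role shared in the lower values: the medians were -0.73 for the trimer antenna genes, -0.68 for PSA, -0.61 for LHCA, -0.59 for PSB, -0.58 for LHCB4 to LHCB7 and -0.58 for carriers and FNR. PSBS had 17.76 and 19.91 in EYFP OE and 7.77 and 11.85 in IMA1 OE (change of -0.90 ± 0.19 SE in log2 units; limma, adjusted p = 0.206). LHCB1.3 had 328.25 and 243.42 against 126.00 and 168.01 (change of -0.95 ± 0.19 SE in log2 units; limma, adjusted p = 0.179). PETC had 20.73 and 23.15 against 11.92 and 17.26, and FD2 had 57.95 and 55.46 against 43.52 and 50.26. In these genes both IMA1 OE values lay below both EYFP OE values. FD1 again overlapped, with 43.61 and 39.90 against 43.89 and 39.07.

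The leaf marker sums were lower here too, from 300.84 and 321.58 in EYFP OE to 177.19 and 252.33 in IMA1 OE as a sum, with 6 of 8 lower. The root markers summed to 229.24 and 220.41 in EYFP OE and to 245.37 and 215.55 in IMA1 OE. The part of the leaf-marker difference in the result was not tested. The same root libraries showed the iron-deficiency regulators BHLH38, BHLH39, BHLH100 and BHLH101 past the adjusted threshold, all higher in IMA1 OE (limma, adjusted p from 0.000295 to 0.0143). The other 3 genes of that list of 7, the ferritins, did not pass, with log2 changes of -0.23 for FER1, 0.15 for FER3 and -0.13 for FER4, and both IMA1 OE values of FER4 lay below both EYFP OE values. Library 2 of the IMA1 OE group was above library 1 for 46 of the 48 genes. Without library 1 the median was -0.42, and without library 2 it was -0.84, and 47 and 46 of the 48 genes had a lower mean.

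**Figure D5:**
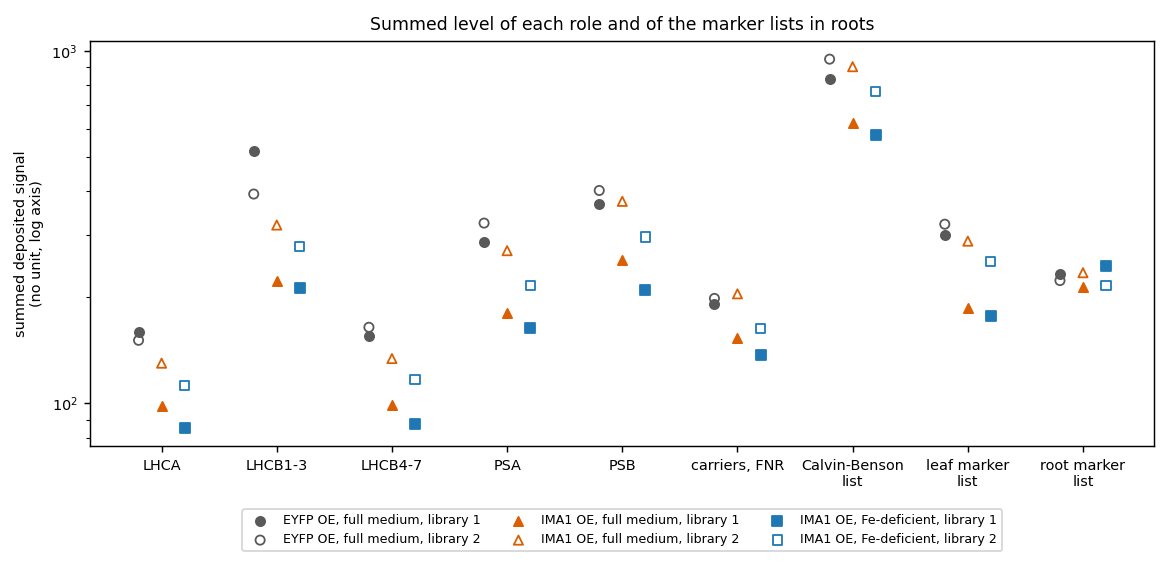
Summed deposited signal (log axis) of each role and of the Calvin-Benson, leaf and root marker lists in root libraries of the 3 groups; filled symbols are library 1 and open symbols library 2. The sums of the antenna and PSA roles and of the leaf markers are highest in EYFP OE and lowest in library 1 of the IMA1 OE groups. The PSB sum is also lowest there, but full-medium IMA1 OE library 2 (374.12) lies above EYFP OE library 1 (368.61). The root marker sums lie between 213.68 and 245.37 in all groups.

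The difference between tissues was tested as an interaction, the change in roots minus the change in rosettes. Genes that passed the filter in either tissue were used. LHCA6 and LHCB1.4 are therefore included, although their root signals were below 1 in every library. The log2(signal + 1) scale understates the root changes of such low genes. On full medium the difference was below 0 for 49 of the 50 genes (all but LHCB1.4), where 46.7% of all genes were, with a median of -0.41. None passed the adjusted threshold, which 0.0189% of all genes did, and only LHCA2 had an unadjusted limma p under 0.05 (difference -0.52, SE 0.19, adjusted p = 1), where 4.32% of all genes did. With Fe-deficient IMA1 OE plants it was below 0 for all 50, where 48.4% of all genes were, with a median of -0.64. None passed the adjusted threshold, which 0.313% of all genes did, and 22 had an unadjusted p under 0.05, where 6.76% did. PSAE1 had the smallest adjusted p, 0.303, with a difference of -0.77 and a 95% interval from -1.21 to -0.34. Without IMA1 OE root library 1 the median on full medium was -0.15, and without IMA1 OE root library 2 it was -0.70. For Fe-deficient plants the median without IMA1 OE root library 1 was -0.42. The changes set side by side come from tables that were normalized separately.

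Within the IMA1 OE line, the change on Fe-deficient medium was set beside that on full medium for each gene, with the same EYFP OE libraries as reference in both. In roots it was lower for 42 of the 48 genes, with a median difference of -0.19, where 52.0% of all genes were lower. In rosettes it was lower for 15 of the 50 and higher for 33, with a median difference of 0.02, where 49.1% of all genes were lower. These differences between tables were not tested.

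Other photosynthesis genes were described from lists. For these lists and the regulators below, the comparison is the share of all tested genes with a lower mean in IMA1 OE. That share was 53.9% in roots on full medium and 55.2% in Fe-deficient roots, and 58.5% and 56.8% in the same comparisons of rosettes. Of the 20 Calvin-Benson genes, which encode carbon-fixing enzymes and include 6 of the 8 leaf markers, 17 had a lower mean in IMA1 OE roots on full medium (median log2 change -0.43) and 17 in Fe-deficient roots (median -0.72). In rosettes 17 were lower on full medium (median -0.10) and 13 in Fe-deficient plants (median -0.11). Of 17 tested genes for other electron transport proteins, such as plastid ATP synthase subunits and root-type ferredoxins, 14 and 15 were lower in the root comparisons (medians -0.13 and -0.37) and 12 in each rosette comparison (medians -0.12 and -0.08). Of 8 LHC-like genes, which encode stress-related relatives of the antenna proteins, 5 and 8 were lower in roots (medians -0.03 and -0.25) and 7 in each rosette comparison. None of these genes passed the adjusted threshold. In the authors' Z-test, 8 of the 20 Calvin-Benson genes had p under 0.05 in full-medium rosettes, all lower. In Fe-deficient rosettes 9 did, 8 of them lower. Over all tested genes 2.11% and 1.7% did. In roots 1 and 3 of the 20 did, all lower, where 0.755% and 1.71% of all tested genes did. Of the other electron transport list, 2 genes did in full-medium rosettes and 2 in Fe-deficient roots, all lower. No LHC-like gene did.

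The regulators of photosynthesis genes had a median change just above 0 in roots on full medium. The list holds the GLK factors and HY5, which activate light-reaction genes, with PIF repressors, thylakoid kinases and sigma factors of the plastid polymerase. GLK1 (AT2G20570), AT5G56860 and AT4G26150 had signals below 1 in every root library and were not tested in roots. Of its 10 genes tested in roots, 3 were lower in IMA1 OE on full medium (median log2 change 0.06) and 8 in Fe-deficient plants (median -0.17). In rosettes 5 of 13 were lower on full medium (median 0.09) and 3 of 13 in Fe-deficient plants (median 0.07). None passed the adjusted threshold. The 11 plastid-encoded genes for photosystem and related proteins summed to 363.43 and 326.83 in EYFP OE rosettes and to 161.30 and 553.89 in IMA1 OE rosettes on full medium. Since the libraries were made from polyadenylated RNA, which plastid transcripts mostly lack, no level is drawn from them.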

How the data were processed

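Polyadenylated RNA of 12 samples was sequenced from stranded libraries, per the labels' protocols. The authors deposited 4 tables, each with a normalized signal for 33607 genes in 4 libraries; the table names give TMM and no unit. Genes at the floor had a product of signal and longest transcript length of 14.4 to 15.7 (medians of the 4 tables), so the signal was taken as length-scaled. Per the submitters' processing notes, bcl2fastq 1.8.4, Trimmomatic 0.35, Bowtie2 2.0.6, edgeR 3.12.1, limma 3.26.9 and TAIR10 were named, with no role or order; the counting step is not given in the sources used here. The authors also deposited a p-value per gene from a Z-test and a log2 ratio of the group means, per the file headers. Columns were assigned through headings and sample labels, 4 transgene rows per table were left out, and 0 per-sample columns were unused.

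Values were analysed as log2(signal + 1). Genes with a signal of at least 1 in 2 or more of the 4 libraries of a table were tested with limma 3.58.1 in R 4.3.3 (moderated test with intensity trend, two-sided, Benjamini-Hochberg adjustment over all tested genes, threshold 0.05). Tests stayed within a table because the authors normalized the tables separately, and the difference between tissues was an interaction term over 8 libraries. That term was fitted for genes that passed the filter in either tissue. Both comparisons of a tissue share the EYFP OE libraries. No read totals were available, so the depth is unknown and no counting interval is given. The procedure was tested on simulated data with independent noise in each library. Deviations shared by same-numbered libraries were not simulated, so that test does not show how the procedure behaves with them. Descriptions used Python 3.11.15 with pandas 2.3.3, numpy 2.4.6, biopython 1.88 and matplotlib 3.10.9, and promoters were read from RefSeq TAIR10.1.

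The members and lists were chosen with earlier results of these data known. Named genes were those past the adjusted threshold, the highest, the lowest and the most changed gene of each role in rosettes, both members of paralogue pairs, products that hold iron, and genes apart in both rosette comparisons (35 of the 50); any other gene was named after its values were seen. Alternatives were another pseudocount (0.1), no filter, no intensity trend, centred libraries, a replicate block and leaving out each library.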

Additional observations from a re-analysis of the deposited data

How the results depend on the processing

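No light-reaction gene passed the adjusted threshold in the comparisons above, so an alternative had no passing call to reverse. The lack of reversed calls is therefore not a sign of stability. Of 2134 values of named genes compared with an alternative, 35 changed sign and moved by at least the SE of the main fit. Another 5 became stronger, all with the replicate block. The remaining 2094 were counted as the same, a label that does not bound the size of a move. It includes moves of any size that kept their sign. With 2 libraries per group, leaving one out leaves a lone sample that is assumed to vary like the others. Depth is unknown, so low root values could not be separated from unread genes.

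The labels do not say that replicate numbers mark a shared batch, and deviations of same-numbered samples correlated at 0.24 to 0.45 over genes, from 2 pairs per comparison. With the replicate block, 9 of the 48 genes passed in Fe-deficient roots, among them PSAD1 (adjusted p = 0.0324), PSAE1 (0.0476), PSAH1 (0.0249), PSAH2 (0.0316) and PSBS (0.0489), all with limma. The block moved the count over all genes from 7 to 16 in full-medium roots, from 181 to 323 in Fe-deficient roots, from 2 to 60 in full-medium rosettes, and from 4 to 0 for the tissue difference on full medium. It changed no other call of the named genes.

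Without the filter, all-gene counts were 141 in full-medium roots, 113 and 130 in full-medium and Fe-deficient rosettes (from 2 and 1), and 133 and 164 for the tissue differences (from 4 and 66). A pseudocount of 0.1 gave 1 in full-medium rosettes and 33 for the tissue difference with Fe deficiency. Without the intensity trend 120 genes passed in Fe-deficient roots. With each library centred, 3 of the 50 genes instead of 1 lay above in full-medium rosettes.

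Leaving out a library gave all-gene counts of 0 to 4 and 55 to 80 in the root comparisons, 0 to 10 and 0 to 4 in rosettes, and 0 to 17 and 30 to 94 for the tissue differences. Member medians ran from -0.74 to -0.146 and from -0.839 to -0.415 in roots, from -0.157 to 0.115 and from -0.115 to 0.153 in rosettes, and from -0.7 to -0.15 and from -0.843 to -0.423 for the tissue differences. The number of genes with a lower mean in IMA1 OE, an alternative chosen after seeing the data, ran from 40 to 48 and from 46 to 47 in roots, and from 14 to 39 and from 13 to 37 in rosettes.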
